A study of Drosophila melanogaster with 8 samples.

Results

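The tracheal cells of a whole Drosophila embryo atlas were selected on their own counts: a cell was a member when trh and btl together had at least 2 unique molecular identifiers (UMIs, each tagging 1 captured molecule) and alrm, elav and repo had 0. By this rule 583 of the 27932 cells kept were members, of 38531 distinct cells in the matrix, and kept cells had at least 200 genes and under 20% of UMIs in mitochondrial genes. The embryos were at stage 17, collected 17 to 18.5 h after laying at 25 °C, and all carried the alrm-gal4 and 25H07-gal4 drivers, used for astrocytes, with the reporters UAS myr::GFP and UAS-redstinger::NLS. There was 1 genotype and 1 condition, with no embryos lacking these transgenes. The 8 samples were 4 replicates, each a pool of embryos dissociated together and sequenced on 2 lanes.

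The trachea is the gas transport system of the insect, a network of epithelial tubes grown by branching. Its fate is set by Trachealess (trh), a bHLH-PAS transcription factor, and its branches migrate and sprout through Breathless (btl), the receptor for the fibroblast growth factor Branchless. At the end of embryogenesis the cells line the lumen with chitin and then with cuticle, clear the luminal liquid and fill the tubes with gas, so a cell type defined early by patterning genes becomes known for secreting matrix. The genes that exclude a cell mark other fates: elav neurons, repo glia, and alrm astrocytes.

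Each replicate's 2 lanes appeared as barcode suffixes n and n+4, which shared at least 99.56% of their barcodes, against at most 0.422% for any other suffixes, and were summed into 4 library pairs. The suffixes could not be matched to samples by name, so the matrix was treated as 1 sample: no p-values are given, intervals are 95% and cover counting error only, and the 4 pairs show how far values repeat. Both lanes read the same library, so a molecule may have been counted under both suffixes, which makes the intervals too narrow. Members numbered 142, 149, 147 and 145 in library pairs 1 to 4, or 1.94% (exact binomial interval 1.64 to 2.29%), 2.26% (1.92 to 2.65%), 2.05% (1.74 to 2.41%) and 2.11% (1.78 to 2.48%) of kept cells. These 4 intervals overlap. Members had a median of 9579 UMIs (841 to 123027; 8978, 10018, 10151 and 10026 by pair) and 1283 genes (363 to 3770). Library pair 1 stood apart from the others in many values, though not in trh, wat or snsl: its members had 2.77% of UMIs in mitochondrial genes against 4.67 to 4.94%. It is given separately beside many of the results it touches, but not beside all of them.

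The reference for gene levels was the 13555 other kept cells with alrm, elav and repo at 0 and trh plus btl at no more than 1, called here the other gated cells, with a median of 3621 UMIs. Levels are the counts of a gene per 1000000 of the summed UMIs (CPM), and ratios are log2 of CPM in members over CPM in the other gated cells.

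The genes that chose the cells are given as a description. Trh had 2853 UMIs in members, a level of 376.5, 294.6, 368.5 and 334.7 CPM in library pairs 1 to 4, and btl had 879 UMIs, a level of 72.6, 102, 136 and 109 CPM. Both genes had a UMI in 347 members (59.5%), trh alone in 221 and btl alone in 15. The sum of both had a median of 5 UMIs and a range of 2 to 33. Just inside the threshold lay 98 members with 2 UMIs and 99 with 3, and just outside lay 243 gated cells with 1 UMI. Of the 583 members, 533 had at least 2 UMIs within a single lane and 500 had a UMI of trh or btl under both suffixes.

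Genes that the rule did not use moved with these 2. The cuticle protein gene Cpr64Ad had a level of 94.2 CPM in gated cells with no UMI of trh or btl, 4253 CPM at 1 UMI, 10924 CPM at 2 and 33172 CPM at 6 or more. Ventral veins lacking (vvl), the POU-domain factor that acts beside trh in tracheal fate, had 112, 313, 699 and 893 CPM at the same steps. Knirps (kni), a zinc finger factor of the nuclear receptor family that patterns tracheal branches, went from 4.32 CPM at 0 UMIs to 42.1 CPM at 1 and 86.8 CPM at 2, and was 62.3 CPM at 6 or more. The cells at 1 UMI therefore lay between the others in all 3 genes. Genes of other tissues were lower in the cells with most UMIs of trh and btl, but not all fell at the threshold. The fat body lipoprotein precursor apolpp had 3316 CPM at 0 UMIs, 1929 CPM at 1, 132 CPM at 2, 326 CPM at 3 and 38.3 CPM at 6 or more. Pxn, the Peroxidasin of blood cells, had 622, 277, 56.8, 25.7 and 7.56 CPM at the same steps, and the muscle myosin gene Mhc had 168, 156, 252, 31.7 and 11.9 CPM. A cell with more UMIs in all has more chances to reach 2, and median UMIs per cell ran from 3615 at 0 to 17987 at 6 or more. The part of depth in these steps was not tested.

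**Figure D1:**
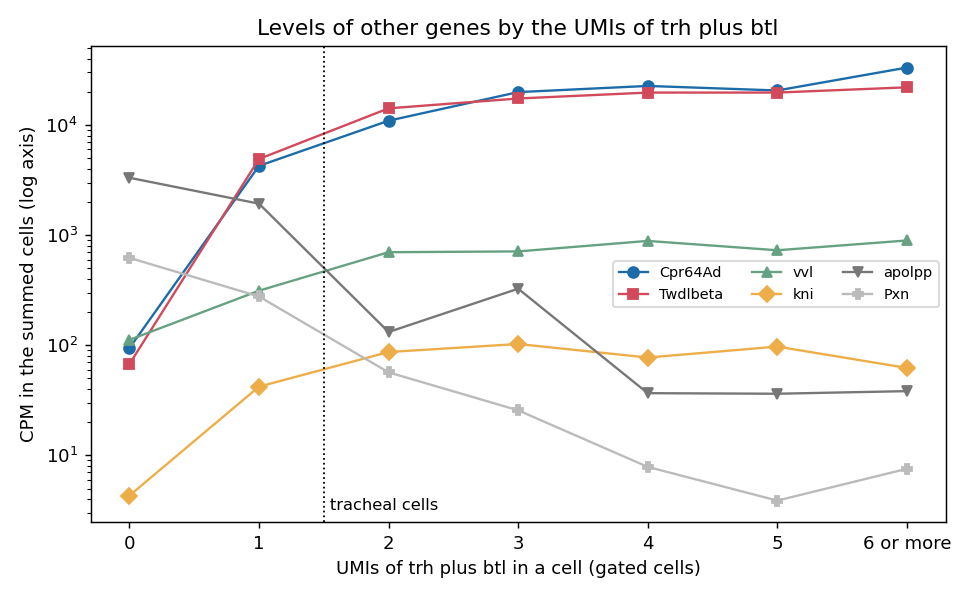
Levels (CPM in the summed cells, log axis) of 6 genes that the rule did not use, in gated cells grouped by their UMIs of trh plus btl; the dotted line is the membership threshold and lines join the points of 1 gene. Cpr64Ad, Twdlbeta, vvl and kni were higher at 2 UMIs and above than at 0, and apolpp and Pxn were lower.

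Free RNA in the droplets can put a UMI into a cell that does not express the gene, so shares of cells with a UMI were also taken after thinning every cell to 1000 UMIs, which left out 1 of the 583 members. Vvl was then detected in 51% of members (46.9 to 55.2%), against 2.87% of muscle cells and 31.2% of neuronal cells. Unthinned, the shares were 88%, 8.35% and 58.4%, at median depths of 9579, 3101 and 5144 UMIs. Kni was detected in 8.93% of thinned members (6.74 to 11.5%) and in 0.205% and 0.218% of the 2 background classes. Waterproof (wat), a fatty acyl-CoA reductase needed for gas filling, was detected in 51.2% of thinned members (47.1 to 55.3%), against 0.205% and 0.762%. Of 26 genes examined in this way, 23 had an interval in members above the intervals of both background classes, and the 3 that did not were bs, dysf and ems. The 26 were not chosen blind to the ratios: wat, for example, has one of the large ratios in these same members. For such genes a higher share was close to fixed beforehand, so the count is a description and not a test of the label. Against these 2 background classes vvl and kni, factors outside the rule, went with the label of the cells, except in 1 group of 39 cells described below. Members are compared with other cuticle-secreting cells further below.

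Across 9778 genes tested, those with at least 50 UMIs in both sets together, 707 were called higher in members and 5768 lower. A gene was called when its pooled ratio was at least 2-fold and its direction was the same in all 4 library pairs. That is 7.23% of genes tested called higher and 59% called lower, and the lists below are read against these shares. CPM is a share of a total: 106 genes with a log2 ratio of at least 5 held 38% of the UMIs of members and 0.42% of those of the other gated cells, which left a smaller share to the rest. The median log2 ratio of all genes was -1.61. Centred on that median, 2308 genes were called higher and 2250 lower, and scaled to UMIs outside the 100 most abundant genes of either set the counts were 1010 and 4157, with a median of -0.96. A gene near -1.61 therefore moved like the typical gene, and calls of lower between -1.61 and 0 turn positive when centred on it.

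The 106 high-ratio genes held 13 of the named cuticle families (6 Osiris, 4 Cpr, 2 Ccp84A and 1 Tweedle gene) and wat, reb and ETH, which are described below, and 74 of them had only a CG number and no role known here. They made up a median of 34.2% of a member's UMIs, with 21.7% at the lower and 42.3% at the upper quartile. At least 10% of UMIs were in these genes in 505 of the 583 members and in 162 of the other gated cells, while 36 members had under 1%. The share of members at or above 10% was 69.2% among cells with trh alone, 86.7% among cells with btl alone and 97.7% among cells with both.

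The 20 genes with the largest ratios (chosen by ratio, so given as a description) included Cpr64Ad (7.33), Twdlbeta (6.98) of the Tweedle cuticle family and genes with only a CG number, from CG31960 (7.57) to CG14095 (6.81). Together they held 13.4% of the UMIs of members and 0.101% of those of the other gated cells. Cpr64Ad had levels of 18679, 35241, 25768 and 32345 CPM in members of library pairs 1 to 4, against 57.1, 389.4, 182.3 and 165.5 CPM in the other gated cells. A UMI of Cpr64Ad was found in 70% of members and 12.6% of the other gated cells. CG31960 rested on 110 UMIs, of which the highest cell held 20%, and its level was 37.9 CPM in library pair 4 and 3.01 to 7.01 CPM in the others. Without pair 4 it had too few UMIs to test.

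The 10 lowest ratios, among genes with at least 300 CPM in the other gated cells, ran from -6.27 for CG43799 to -5.75 for NimB4. NimB3 and NimB4 belong to the Nimrod family, Npc2g to the sterol-binding Npc2 family and Obp99c to the odorant-binding proteins. Npc2g had levels of 27.3, 54.4, 81.3 and 21 CPM in members of library pairs 1 to 4 and 2721 CPM in the other gated cells.

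**Figure D2:**
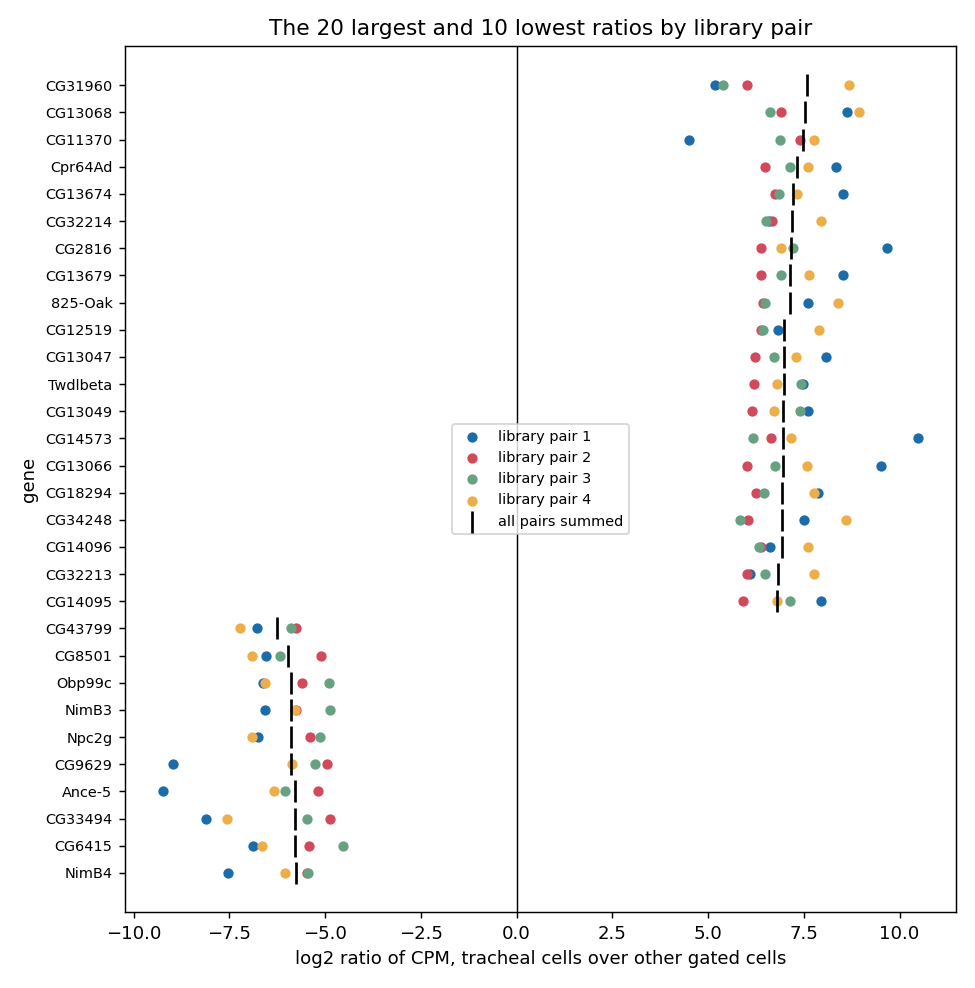
Log2 ratios of CPM (tracheal cells over other gated cells) of the 20 genes with the largest and the 10 with the lowest ratios; points are the 4 library pairs and bars the pooled value. The points of the largest 20 lie between 4.49 and 10.48, and all points of the lowest 10 lie below -4.5.

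Many of the largest genes sat together on chromosome arm 3L. By the Ensembl 115 annotation of BDGP6, 17 of the 20 had another gene with a log2 ratio of at least 5 within 50 kb, as had 50 of all 106 (47.2%), against 8.09% of the genes tested. The longest run, on 3L from 16264713 to 16290950, held 10 of the 106 among 12 genes tested there (CG13045 to CG13069 in number) and 6.15% of the UMIs of members. A run of 8 on 3L from 19464049 to 19476423, with CG14095, CG32214 and CG12519, held 3.15%, and all 8 genes tested in it were among the 106. A run of 4 on 3L from 4207838 to 4242603, with Cpr64Aa, Cpr64Ab and Cpr64Ad, held 5.17%. The Osiris genes Osi9, Osi13, Osi15, Osi18, Osi19 and Osi20 lay with 2 others on 3R from 6260211 to 6342873 and held 6.88%. Neighbours in such runs can be close copies of each other, and how reads that match several copies were counted is not given in the sources used here, so values of single genes in a run are uncertain.

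Of the transcription factors of tracheal fate, 7 of 14 tested were called higher and 3 lower, beside 7.23% and 59% of all genes, with a median log2 ratio of 1.07; centred on the median gene the counts were 11 and 1. Kni had levels of 88.1, 58.8, 90.4 and 53.8 CPM in members of library pairs 1 to 4 and 4.3 to 7.11 CPM in the other gated cells, a log2 ratio of 3.83 (3.64 to 4.02). Its relative knrl, which acts redundantly with kni, had a ratio of 2.91 (2.74 to 3.09). The members of every pair lay above the other gated cells in both genes. Vvl had 468, 969, 1002 and 925 CPM against 101 to 138 CPM, a ratio of 2.87 (2.83 to 2.92), and was lowest in pair 1.

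The other 4 called higher were peb (1.81), the zinc finger factor Hindsight, dysf (1.57), the bHLH-PAS factor of fusion cells, rib (1.53), a BTB factor of tube growth, and grh (1.24), the Grainyhead factor of epidermal barriers. Tango (tgo), the partner that binds DNA with Trh, was not called at 0.65. Pointed (pnt), the ETS activator of terminal branches, had a ratio of -2.78 and was called lower also after centring. Ttk (-1.15) and aop (-1.12, and -0.87 without pair 2), both repressors, were called lower but lay above the median of all genes, at 0.46 and 0.49 after centring. With all other kept cells as the reference, neurons and glia included, only kni (2.92), knrl (2.22), vvl (1.43) and dysf (1.14) were called higher.

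In the branching pathway, 1 of 12 genes tested was called higher and 7 lower, with a median of -1.17, and after centring 3 were called higher and 0 lower. The gene called higher was stumps, the adaptor that joins Breathless to Ras signalling and acts only downstream of the fly's FGF receptors. It had levels of 144, 37.7, 48.2 and 37.9 CPM in members against 5.51 to 13.1 CPM in the other gated cells, a ratio of 2.94 (2.77 to 3.11). Members of pair 1 were more than 2-fold above the other pairs. The ligand bnl had 41 UMIs in members and a ratio of -1.75, and the inhibitor sprouty (sty) had a ratio of -1.66, both close to the median of all genes. Without pair 1 sty was at -2.37, below the median of all genes, which was then -1.65.

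Most genes that make and shape luminal chitin were higher in members: 15 of 22 were called higher and 3 lower, with a median of 1.64. The largest were reb (5.42), which with its relative exp (3.50) is needed to deposit luminal chitin, and Cht5 (4.74), a chitinase. The chitin-organising proteins knk and rtv had ratios of 2.77 and 3.13, the deacetylases Cda5 and Cda4 ratios of 3.30 and 3.22, and the chitin-binding proteins obst-B, obst-A and Gasp ratios of 2.39, 1.71 and 1.52. The chitin synthase kkv had levels of 130, 28.5, 31.6 and 31.8 CPM against 16.8 to 32.6 CPM, a ratio of 1.20 (1.05 to 1.35). Its level in pair 1 was over 4-fold that of the others, and without pair 1 the list had 11 of 21 genes called higher, with kkv (0.69), obst-A (0.94), Gasp (0.91) and verm (0.80) no longer called.

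The 2 deacetylases that limit tube length had lower ratios than the deacetylases Cda5 and Cda4. Verm had 967, 409, 421 and 406 CPM in members and a ratio of 1.01 (0.96 to 1.05), on the edge of a call. Serp had 531, 132, 156 and 124 CPM, a ratio of 0.35 (0.28 to 0.42), and was not called. Both were highest in pair 1, and the difference between the 4 pairs was larger than the difference between members and the other gated cells.

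Of 12 zona pellucida domain proteins, which anchor the apical surface to the matrix, 5 were called higher and 3 lower, with a median of 1.09. Dumpy (dpy), a giant elastic protein of the lumen, had a ratio of 3.36 (3.30 to 3.42) and piopio (pio), its partner, 2.94 (2.82 to 3.06). Pio had 66.4, 153, 158 and 143 CPM in members against 8.51 to 28.5 CPM. For pio, pair 1 was the lowest of the 4, although all 4 lay above the other gated cells. The summed list went the other way, with 2080 CPM in members of pair 1 against 1381 to 1581 CPM in the others.

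Among 8 proteins of the tube surface, 4 were called higher and 2 lower. Convoluted (conv), needed for tube length, had 31.9, 35.5, 27.1 and 28.1 CPM against 5.35 to 9.21 CPM, a ratio of 2.13 (1.91 to 2.35). Uninflatable (uif), an apical membrane protein of tracheal cells, had a ratio of 1.97 (1.86 to 2.07), which rested on pair 1: its levels were 451, 33.3, 49.2 and 35.1 CPM in members against 48.4, 32.3, 24.5 and 27.7 CPM in the other gated cells. In pair 2 the sets were nearly equal, and without pair 1 the ratio was 0.49 and not called. Atet, a transporter of the ABC class, and Mmp1, a matrix metalloprotease, had ratios of -2.58 and -2.73.

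The genes of liquid clearance and gas filling had the largest ratios of the tracheal lists, with 4 of 5 tested called higher and a median of 3.04. Wat had levels of 784, 742, 895 and 827 CPM in members of library pairs 1 to 4 against 7.66 to 17.7 CPM, a ratio of 6.25 (6.14 to 6.36), and its 4 pairs were close to each other. Snu, an ABC transporter of the cuticle barrier, had 178, 1310, 1372 and 1372 CPM, a ratio of 4.17 (4.11 to 4.22), with pair 1 over 7-fold below the rest. Its partner snsl, an extracellular protein, had 244, 244, 253 and 249 CPM, a ratio of 2.75 (2.67 to 2.84). Wus, a J-domain protein that clears luminal material by endocytosis, had 179, 10.1, 29.6 and 20.6 CPM, a ratio of 3.04 (2.86 to 3.23), and was highest in pair 1. The other 6 of the list's 11 genes had too few UMIs to test, all of them ppk genes for epithelial sodium channel subunits.

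The septate junction seals the epithelium and also sends Serp and Verm into the lumen. Of its 20 genes, 16 were called higher and none lower than in the other gated cells, with a median of 1.67, from pasi1 at 2.27 (2.17 to 2.37) to Nrg at 1.01 (0.95 to 1.07), which was 0.77 without pair 1 and 0.94 without pair 3. The claudin sinu had 161, 76.3, 97.4 and 90.7 CPM in members against 20 to 33.2 CPM, a ratio of 1.88. That count depended on the reference: with neurons and glia included among the other cells, 0 of the 20 were called higher and 2 lower, and Nrg, whose product also guides axons, turned to -0.69. Of 9 apical polarity genes, crb (1.86), baz (1.21) and sdt (1.09) were called higher and none lower, and sdt was at 0.74 without pair 1.

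Of the 5 fusion cell genes tested, CG13196 (4.68), dysf and hdc (1.16, but -0.70 with all other kept cells as the reference) were called higher and none lower, and the terminal cell gene bs was at 0.02 (-0.25 to 0.28). In the hypoxia response, chrb, an inhibitor of TOR signalling, was called higher at 1.27 and Ldh, lactate dehydrogenase, lower at -1.91, of 5 genes tested. Chrb turned to -0.21 when all other kept cells were the reference.

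**Figure D3:**
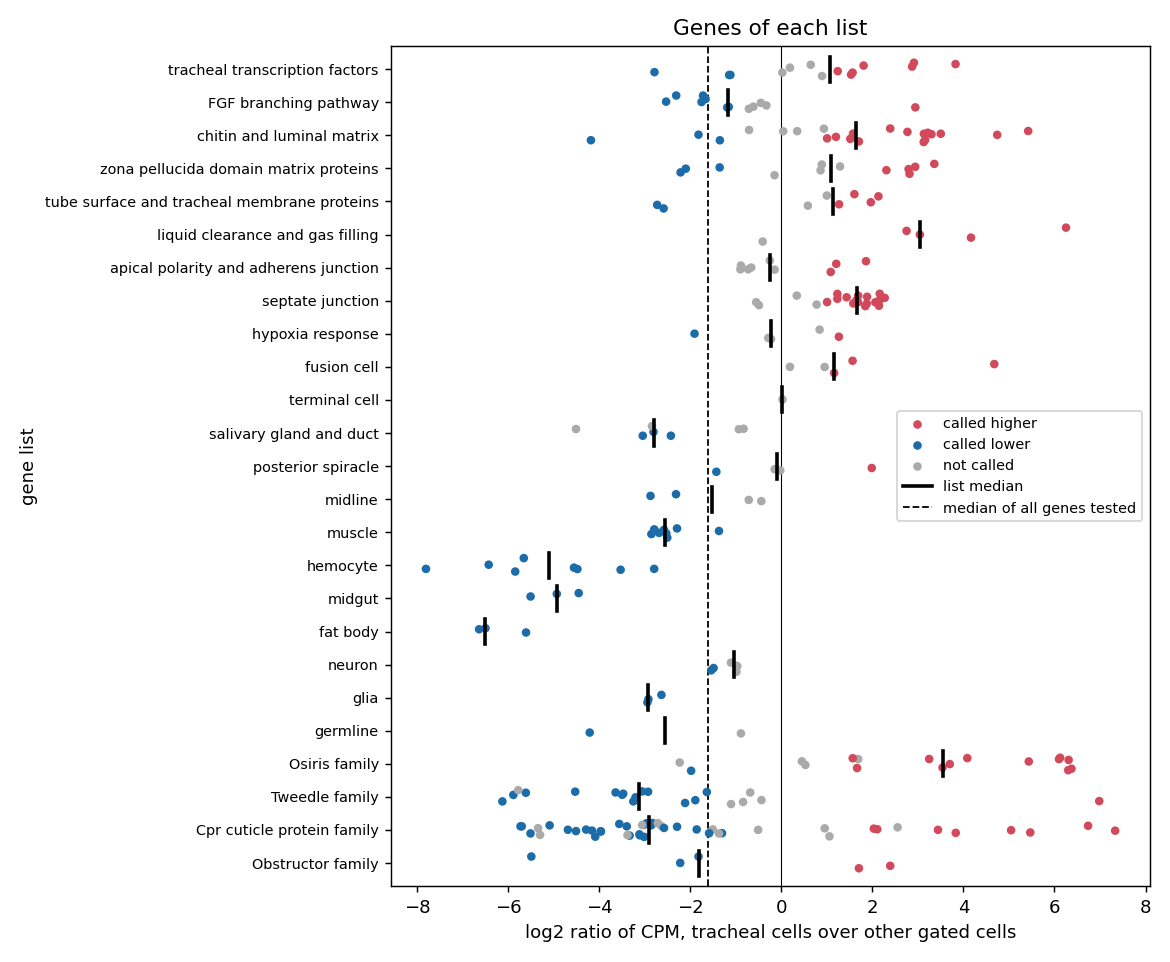
Log2 ratios of CPM (tracheal cells over other gated cells) of the tested genes of each list; red points are called higher, blue lower and grey neither, black bars are list medians and the dashed line is the median of all genes, -1.61. The 11 tracheal lists have medians above that line, and so have the neuron, midline and posterior spiracle lists. The muscle, hemocyte, midgut, fat body, glia, salivary gland and germline lists have medians below it. The lowest hemocyte point is a gene with no UMI in members, drawn with 0.5 UMI added.

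The families of cuticle genes differed. The Osiris family, insect transmembrane proteins of cuticle-secreting cells, had 12 of 17 genes called higher and 1 lower, with a median of 3.54 and the largest ratios in Osi20 (6.37), Osi15 (6.31) and Osi18 (6.30). Osi6 had a ratio of -1.98, or -2.60 without pair 1. The Tweedle family had 14 of 20 lower and 1 higher, Twdlbeta, which had levels of 9968, 23085, 23232 and 25204 CPM in members and 55.9 to 313 CPM in the other gated cells. The Cpr family, whose proteins bind chitin, had 8 of 46 higher and 26 lower, beside 7.23% higher and 59% lower of all genes: Cpr64Ad, Cpr64Ab (6.74), Cpr64Aa (5.47), Cpr66D (5.05), Cpr64Ac (3.83), Cpr12A (3.44), Cpr97Eb (2.11) and Cpr51A (2.03) were the 8. Several of these leaned on 1 pair: without pair 1, Cpr66D was at 4.46 and Cpr97Eb at 1.39, without pair 2 Cpr12A was at 2.62, without pair 3 Cpr64Ac was at 4.69, and without pair 4 Cpr12A and Cpr97Eb were at 4.32 and 2.84. The directions of Osi6, Twdlbeta and these 8 Cpr genes were kept under both other scalings, while centring gave 2 higher and 8 lower in the Tweedle family and 11 and 14 in the Cpr family. Of 5 Obstructor genes, obst-A and obst-B were called higher and 3 lower.

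Marker lists of other cell types had lower sums in members, but the medians of the neuron, midline and posterior spiracle lists lay above that of all genes. The 8 muscle markers summed to 359, 328, 322 and 765 CPM in members of library pairs 1 to 4 against 1779 to 3570 CPM in the other gated cells, and all 8 were called lower, but only 1 after centring. The 8 hemocyte markers summed to 30.4 to 65.3 CPM against 783 to 1663 CPM, the 3 fat body markers to 40.7 to 135 CPM against 2689 to 4653 CPM, and the 3 midgut markers to 0.877 to 5.15 CPM against 37.2 to 112 CPM. Every hemocyte, fat body, midgut and glia marker was called lower under all 3 scalings, and the hemocyte marker He was at 0. The 6 neuron markers summed to 55.6 to 131 CPM against 104 to 337 CPM and the 3 glia markers to 7.73 to 22.4 CPM against 39.8 to 142 CPM, in cells chosen for no UMI of elav or repo. Of the neuron markers 2 were called lower, beside 59% of all genes. Their median log2 ratio was -1.05, against -1.61 for all genes. The 8 salivary gland genes, a tissue that also expresses trh, summed to 62.8 CPM in pair 1 and 10 to 13.6 CPM in the others. Of these, 0 of 7 tested were called higher and 3 lower, beside 7.23% and 59% of all genes. Of the posterior spiracle genes ems (1.99) was called higher and ct (-1.43, but 0.18 after centring) lower, of 4 midline genes 2 were called lower, and of 2 germline genes 1. The part of other cells' RNA in the values of members was not tested.

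Other epidermal cells also secrete cuticle, so members were compared with 1117 kept cells outside the rule that had at least 1% of UMIs in Tweedle genes other than Twdlbeta (378, 258, 228 and 253 in library pairs 1 to 4). This class was chosen after values were seen, and elav, alrm or repo did not limit it. Of 7146 genes tested 327 (4.58%) were called higher in members and 2388 (33.4%) lower, with a median log2 ratio of -0.73. The chitin list had 2 of 21 genes called higher and 11 lower, with a median of -1.09. The tracheal transcription factors had 2 of 14 called higher and 4 lower, with a median of -0.73, like that of all genes. Of the zona pellucida genes 0 of 12 were called higher and 4 lower, and of the tube surface genes 0 of 8 and 1. The liquid clearance list had 2 of 4 called higher and 0 lower, with a median of 0.87. Single genes near 0 were pio, with a ratio of 0.00 (-0.11 to 0.12), rtv with 0.16 (0.02 to 0.30), exp with 0.28 (0.22 to 0.33) and knrl with 0.06 (-0.11 to 0.23), chosen after their values were seen. Of 20 septate junction genes, 0 were called higher and 1 lower.

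Other genes, of the matrix and of other roles, were higher in members than in the Tweedle cells. Cpr64Ad had 28391 CPM in members and 215 CPM in Tweedle cells (7.04, interval 6.99 to 7.10), and Osi15 32424 and 433 CPM (6.23, interval 6.19 to 6.26). Wat had a ratio of 6.17 (5.93 to 6.43), Cht5 of 4.74 (4.31 to 5.20), stumps of 3.95 (3.53 to 4.39), reb of 2.83 (2.68 to 2.98) and kni of 1.62 (1.41 to 1.83). All of these were above 0 in every pair, and kni was the nearest to it, at 0.86 in pair 4. Lower in members were TwdlF (77.2 and 14123 CPM, -7.52), Cpr65Ea (-7.04), Osi6 (-5.73) and, of the luminal proteins, serp (-3.18), verm (-2.69), Gasp (-2.17) and obst-A (-2.15). Gasp and obst-A were -0.79 and -0.73 in pair 1 and between -2.76 and -3.29 in the other 3.

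Members of library pair 1 differed from those of the other pairs in many genes. Of 1140 genes with at least 500 UMIs in members, 66 were at least 4-fold higher and 84 at least 4-fold lower in pair 1 than in each other pair. The same counts were 5 and 1 for pair 2, 0 and 2 for pair 3, and 2 and 0 for pair 4. Pair 1 was the highest of the 4 in 53.2% of these genes.

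The summed Osiris family had 158032 CPM in pair 1 against 39607 to 56491 CPM in the others, and Osi6 had 1010 CPM against 49.1 to 91.9. The zona pellucida gene tyn had 368 CPM against 7.89 to 33.6, Gasp 2717 CPM against 692 to 843, and obst-A 2221 CPM against 453 to 566. Of the 12 Osiris genes called higher, 10 were highest in pair 1, as were 18 of 20 septate junction genes and 12 of 22 chitin genes, the last near the 53.2% of genes with at least 500 UMIs. Some of the high-ratio genes were lower in pair 1: CG12519 had 158 CPM against 4292 to 6051, CG13068 144 CPM against 1821 to 4274, and reb 67 CPM against 293 to 330. Osi15, also a high-ratio gene, was highest in pair 1, with 58432.5 CPM against 21303 to 28882. Of the 20 genes with the largest ratios, 19 were lowest in pair 1 and 14 at least 4-fold below each other pair.

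The other gated cells shared some of these differences and not others. CG13068 had 0.341 CPM in those of pair 1 and 6.16 to 35.8 CPM in those of the others, so its log2 ratio was 8.64 in pair 1 and 6.62 to 8.95 elsewhere. CG13068 is a high-ratio gene, and 162 of the other gated cells had at least 10% of UMIs in such genes. The part of those cells in its level was not tested. Osi6 had 2645 CPM in the other gated cells of pair 1 and 188 to 617 CPM in the rest. The septate junction list summed to 4187 CPM in members of pair 1 and 2248 to 2779 CPM in the others, but to 1278 CPM in the other gated cells of pair 1 and 1312 to 1656 CPM in the rest. The tube surface list was likewise highest in members of pair 1 (887 CPM, others 329 to 406) and lowest in its other gated cells (333 CPM, others 636 to 695). Wat, exp and snsl were near the same level in members of all 4 pairs. The age of the embryos within the collection window and the handling of each replicate cannot be told apart from the library pair.

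**Figure D4:**
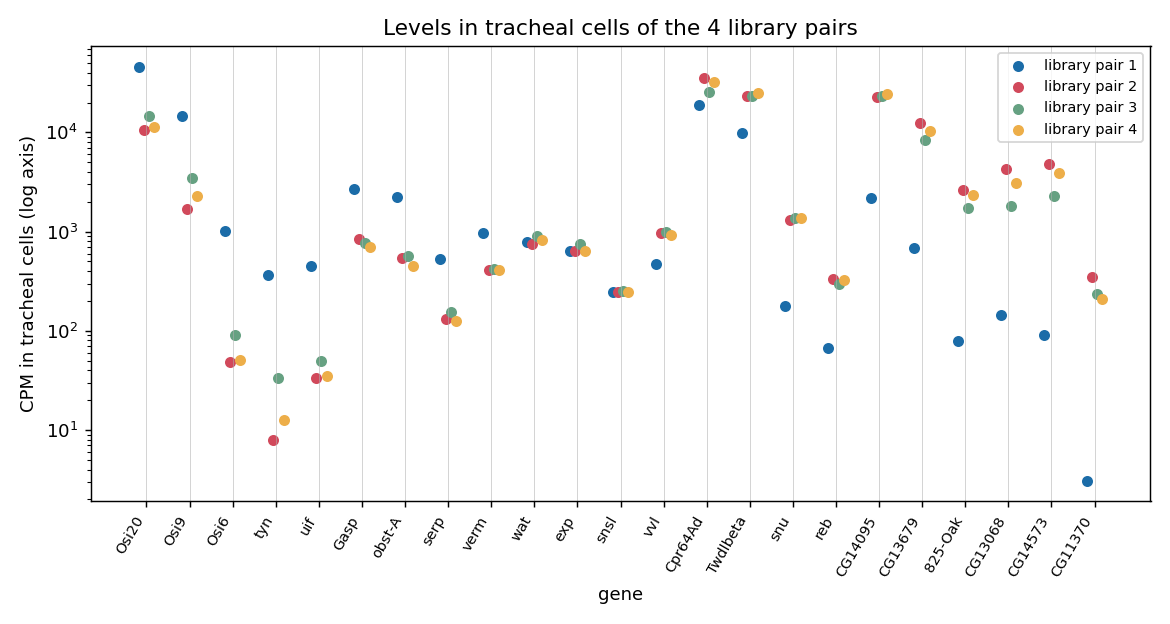
Levels (CPM, log axis) of 23 genes in the tracheal cells of library pairs 1 to 4, from genes higher in pair 1 at the left to genes lower in pair 1 at the right. Uif was 451 CPM in pair 1 and 33.3 to 49.2 CPM in the others, snsl 244 to 253 CPM in all 4, and CG13068 144 CPM against 1821 to 4274 CPM.

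Clustering of the 583 members by 1000 variable genes gave 7 groups, described by number only. All genes entered the clustering, so differences between groups are a description. Other seeds, or 2000 genes, gave 7 or 8 groups, with 73.8 to 87% of cells in the group that held most of their own, and resolution 1.0 gave 11.

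Group 1 (141 cells; 3, 52, 35 and 51 by library pair) had the highest Cpr64Ad, 44183 CPM, with CG12519 at 8013 CPM and CG13068 at 4757 CPM, and was led by Ccp84Ad, CG15213 and CG13239. Group 4 (64 cells; 0, 23, 19 and 22) shared CG12519 (6059 CPM) and CG13068 (4262 CPM) but had Cpr64Ad at 14146 CPM and Osi15 at 3195 CPM. It led in CG14565 and CG14572 and in the chitinase Cht5 (516 CPM, against 15.5 to 123 CPM in the other groups), and dysf was highest there, 23.4 CPM.

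Group 2 (117 cells; 95, 2, 16 and 4) was mostly of library pair 1, and whether it reflects that library or a state of the cells was not tested. It had a summed Osiris level of 179033 CPM, Gasp at 2982 CPM, uif at 522 CPM and CG12519 at 21.6 CPM. The 22 cells of the other pairs had a summed Osiris level of 196042 CPM against 175955 CPM in the 95 of pair 1, and uif at 331 against 557 CPM. Cells were put in the group by their gene levels, so a like pattern in these 22 was close to fixed beforehand. Group 3 (111 cells; 10, 35, 34 and 32) had Osi15 at 60510 CPM and Twdlbeta at 29883 CPM, with CG12519 at 400 CPM.

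Group 6 (52 cells; 12, 14, 15 and 11), found about equally in all pairs, carried the genes of branch outgrowth. Blistered (bs), the serum response factor of terminal cells, had 181 CPM there and at most 21.1 CPM in any other group, with a UMI in 59.6% of its cells. Kni (305 CPM), knrl (302 CPM), btl (267 CPM), stumps (356 CPM), sty (1189 CPM) and pnt (153 CPM) were all at their highest in this group. The fusion cell genes dysf and CG13196 were at 0, and Cpr64Ad was at 1008 CPM, although Osi15 (54333 CPM) and Twdlbeta (18023 CPM) were high as in most other groups. Since bs is the only gene of the terminal cell list, the group was not named.

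Group 7 (39 cells; 17, 9, 6 and 7) went against the label. None of its cells had a UMI of btl or kni, although trh was at 687 CPM, the highest of the groups, and the high-ratio genes made up 3.35% of its UMIs. It had the highest levels of ct (1046 CPM), grn (382 CPM) and ems (117 CPM), homeodomain and GATA factors of the posterior spiracle, and of grh (511 CPM), CG1124 (644 CPM), Gasp (3539 CPM), serp (948 CPM) and Osi6 (2473 CPM). Its leading genes were Cpr12A, Cpr49Ae and TwdlT. Ct had a UMI in 92.3% of its cells and grn in 79.5%, against at most 54.2% and 16.9% in any other group. Abd-B, also in the posterior spiracle list, was at 31.2 CPM in group 7. That was below its level in group 1 (47 CPM), group 4 (48.6 CPM) and group 6 (50.9 CPM).

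Group 5 (59 cells; 5, 14, 22 and 18) held genes of other tissues beside those of the trachea: Col4a1, a collagen IV chain, had 3364 CPM, Pxn 163 CPM, nSyb, a synaptic vesicle protein, 135 CPM and apolpp 451 CPM. Its Cpr64Ad was 17496 CPM and its Twdlbeta 18175 CPM. Doublets were not removed, and their part in this group was not tested. Without groups 5 and 7, 670 genes were called higher and 6253 lower, and 6 of 14 transcription factors and 15 of 20 septate junction genes were called higher.

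**Figure D5:**
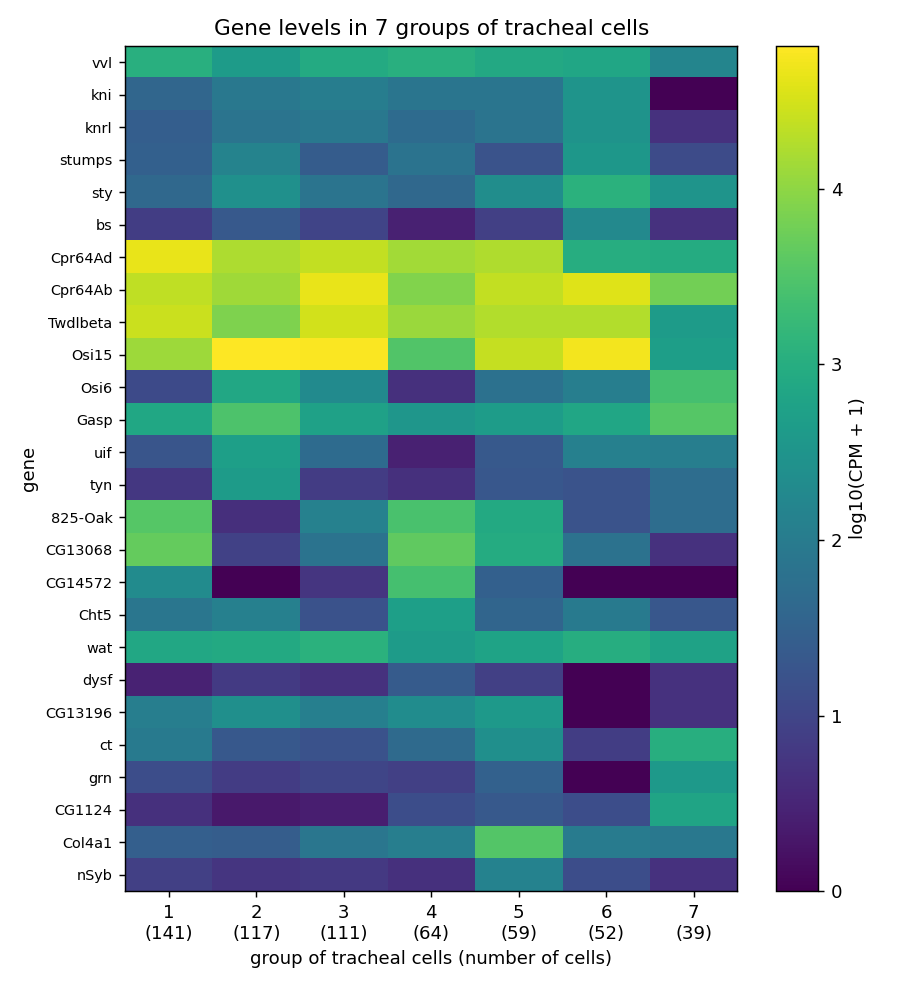
Levels, as log10(CPM + 1), of 26 genes in the 7 groups of tracheal cells, with the number of cells in brackets. Group 6 is brightest in bs, kni, knrl, stumps and sty, group 7 in ct, grn and CG1124 with kni at 0, and CG13068 is highest in groups 1 and 4.

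A pair of rare states was looked at after values had been seen. ETH encodes ecdysis triggering hormone, the peptide of the Inka cells, endocrine cells attached to the trachea. Of the members, 13 had at least 20 UMIs of ETH, with a median of 278 and a range of 20 to 697, and every other member had 3 or fewer. They came as 3, 6, 0 and 4 from library pairs 1 to 4 and held 99.8% of the ETH UMIs of members. Against the other 570 members they had kni at -4.77 (-7.82 to -2.91), with 2 UMIs in all, and amon, the prohormone convertase Amontillado, at 5.33 (3.98 to 6.92), with 22 UMIs. Of the cuticle genes, Cpr64Ad was at 1.22, Twdlbeta at 0.03, Osi15 at -0.55, Gasp at -0.93 and Osi6 at -2.44. They had a median of 48483 UMIs, and of 55 such cells among all kept cells 40 had a UMI of elav, alrm or repo, so the rule left most of them out.

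CG13196, listed as a fusion cell gene, had at least 5 UMIs in 43 members (15, 9, 13 and 6 by library pair). Against the other members, dysf was at 1.83 (0.81 to 2.81) and dnd, a small GTPase needed for fusion, at 2.03 (1.32 to 2.73). The other fusion cell genes hdc and esg were at 0.20 (0.09 to 0.30) and 0.08 (-0.71 to 0.79), and ETH was at 1.36. Btl (-1.05), bs (-1.84) and uif (-1.39) were lower in them, and vvl was about equal (-0.03, interval -0.12 to 0.07). Dysf had a UMI in 10 of the 43, dnd in 6 and ETH in 7.

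The exclusion by elav, alrm and repo left out 1202 kept cells with at least 2 UMIs of trh plus btl, more than the 583 it kept. Of these, 1178 had a UMI of elav, 143 of alrm and 127 of repo, and their median was 13506 UMIs. They fell into 2 sets. In 456, at least 10% of UMIs were in the high-ratio genes, which fixes that their levels of those genes are high. Of genes outside the 106, log2 ratios to members were 0.03 for vvl, 0.04 for exp, -0.03 for dpy, -0.04 for Gasp, -0.41 for kni, -0.39 for btl (which the rule used) and 1.03 for esg. Some genes of the cuticle families differed far more, with TwdlV at 6.53 and Cpr35B at -6.52. These 456 had a median of 22186 UMIs and an elav level of 72.8 CPM, below the 160 CPM of muscle cells taken without regard to elav, and 204 of them were left out by a single UMI of elav. In the other 746, the median share of the high-ratio genes was 0.0242% and elav was at 1215 CPM, above the 730 CPM of all kept cells with at least 2 UMIs of elav.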

How the data were processed

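Dissociated cells of whole embryos were profiled by droplet single-cell RNA-seq, 4 replicates on 2 lanes each. The deposited matrix holds UMI counts per gene and cell, made by the authors with Cell Ranger 3.1.0 on BDGP6 per the submitters' processing notes. Whether depth was equalised between libraries is not given in the sources used here, nor is how reads matching several genes were counted. All 8 columns of suffixes were pooled as 1 sample.

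Lanes of a replicate were summed. Cells needed at least 200 genes and under 20% mitochondrial UMIs, against 50 to 3000 genes and under 10% in the methods. Doublets were not called. Members and gene lists were chosen with earlier results of these data known. Genes named were those of the lists, the 20 largest ratios (at least 100 UMIs in members, above 0 in all 4 pairs) and the 10 lowest (at least 300 CPM in the reference, below 0 in all pairs). The Tweedle class without Twdlbeta, the ETH and CG13196 cells and the library pair 1 comparison were chosen after values were seen. CPM were computed from summed counts, log2 ratios with exact conditional binomial intervals, and shares with Clopper-Pearson intervals (scipy 1.17.1). In log2 ratios of single library pairs 0.5 UMI was added to each sum, and in pooled ratios only where a sum was 0. Muscle cells had at least 2% of UMIs in 8 muscle genes, and neuronal cells at least 2 UMIs of elav and 2 of nSyb, Syt1 and brp. A class of 825-Oak cells (at least 1% of UMIs) held 0 cells. Clustering used 20 principal components, 15 neighbours and leidenalg 0.10.2 at resolution 0.5. Ratios, intervals and calls were tested on simulated data with counting error only. The simulation had no differences between library pairs or cells and no molecule counted under both lanes, so it does not cover those. Positions are from Ensembl 115, by gene ID.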

Additional observations from a re-analysis of the deposited data

Results flagged for a closer look

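Among 4 library pairs, a value was singled out when its gap to the nearest other pair passed Dixon's critical value, which chance gives in about 1 of 20 such sets. Of 58 values examined, 15 did so, and 11 of these were values of library pair 1. Those of pair 1 were the mitochondrial share of UMIs (2.77%), the median UMIs per member (8978), and the summed levels of the chitin list (10129 CPM), the tube surface list (887 CPM), the salivary gland list (62.8 CPM), the Osiris family (158032 CPM), the Tweedle family (10116 CPM) and the Obstructor family (2555 CPM). Single genes apart in pair 1 were Twdlbeta (9968 CPM), CG13049 (19460 CPM) and CG14095 (2167 CPM). In library pair 4 the midline list (112 CPM), the muscle list (765 CPM) and CG31960 (37.9 CPM) stood apart, and in library pair 3 the fat body list (135 CPM).

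Outside the comparisons lay the 1202 kept cells with at least 2 UMIs of trh plus btl and a UMI of alrm, elav or repo, more cells than the rule took as members.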

How the results depend on the processing

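The number of tracheal cells was 485 to 548 under stricter UMI, lane or cell filters, 434 to 441 without any 1 library pair, 347 when a UMI of each gene was required and 1785 with no exclusion by alrm, elav or repo. Genes called higher and lower were 2308 and 2250 after centring on the median gene. Under all other alternatives they were 577 to 1010 higher and 4157 to 7419 lower. Resolution 1.0 gave 11 groups. All 11 tracheal lists kept a median above that of all genes under every alternative run on lists, and the 30 genes with the largest and lowest ratios kept their calls, except that 1 could not be tested without library pair 4. A median above that of all genes is not particular to tracheal lists, since the neuron, midline and posterior spiracle lists had it in the main comparison. Of 3452 values of 204 list and named genes under these alternatives, 226 lost the call and 30 turned. Among genes reported here, ttk (0.46), aop (0.49) and ct (0.18) turned after centring, sdt (-0.25), Nrg (-0.69), chrb (-0.21) and hdc (-0.70) with all other kept cells as reference, and Nrg (-0.073) and Ldh (0.013) with no exclusion. The causes were not tested. Members and other gated cells were paired within each of the 4 library pairs, and calls used the 4 ratios, but no test over them was run, since the suffixes could not be matched to samples. Genes under 50 UMIs were not tested, and shares of cells near those of muscle or neuronal cells could not be told from free RNA at this depth.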
